A study of Mus musculus with 768 samples.

Results

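The genes described here encode proteins of the parts of the myelin sheath that are not compacted, of the membrane that faces the axon (periaxonal) and of the contacts with the axon at and beside the node of Ranvier (paranodal and nodal). They were chosen by name, as Prx, Drp2, Mag, Cldn19, Gjb1, Ncmap, Cadm4, Nfasc, Gldn and Pllp, and all 10 were found among the 25700 genes of the table. The samples were single Schwann cells (SCs) from the sciatic nerve of mice at postnatal day 60 (P60), sorted into 2 plates of 384 wells and sequenced with Smart-Seq2, a full-length cDNA protocol without molecular identifiers. All animals carried ReYFP Tg/+ and βAct-DsRed Tg/+ on a C57bl/6J background with a Cre transgene active in the SC lineage, which switched on the yellow reporter used for sorting, and there was no other genotype or treatment. Each plate was a biological replicate and pooled 2 male and 2 female mice, which cannot be told apart in the data.

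Myelinating SCs wrap a stretch of a large axon in many layers of membrane, most of which are pressed together as compact myelin. Cytoplasm remains in channels at the outer surface, at the inner collar and in the loops that end at the paranodes, and these regions hold their own sets of scaffolds, adhesion molecules and junctions. Non-myelinating (Remak) SCs ensheath several small axons without forming these structures. Mutations in PRX and GJB1 cause inherited neuropathies in humans.

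Cells were classed from genes other than the 10 genes and their partner lists, so the classes did not rest on them. Myelinating SC-like (mSC-like) cells numbered 144 in plate 1 and 73 in plate 2, and non-myelinating (Remak) SC-like (nm(R)SC-like) cells numbered 180 and 248. A cluster led by cell-cycle genes, with 16 and 13 cells, stayed unnamed. Plate 1 held 74280540 reads and plate 2 held 209404659, and the cells that were kept had a median of 158689 and 452483 reads. The plates differed in the opposite direction in the number of detected genes, with medians of 3442 and 2295. Sox10, S100b and Erbb3, markers of every SC, reached 10 CPM (reads scaled to the same standard total) in both classes of both plates. Of the 20 markers of other cell types, those at 10 CPM or more were Col1a1 and Slc2a1 in all 4 sums, Kdr and Csf1r in the mSC-like sums, Pdgfrb in all sums but the nm(R)SC-like sum of plate 1, and Snap25 in that sum. Fibroblast-like markers summed to 206 and 99.5 CPM in mSC-like cells and to 646 and 279 CPM in the nm(R)SC-like class of plates 1 and 2. These sums were almost all Col1a1, which had 83625 reads over all cells, against 402 for Lum, 9 for Pdgfra and 3 for Dpt. The part of other cell types in the results below was not tested.

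The stretches of 250 bases upstream of the start of transcription are shown for 3 genes whose start was the same in RefSeq and GENCODE. Prx and Ncmap were higher in mSC-like cells and Cadm4 had the opposite sign. Sequences are from RefSeq (GRCm38.p6), 5′ to 3′ on the strand of the gene, with capitals for a match to a motif.
Prx (chr7:27499074-27499323, + strand): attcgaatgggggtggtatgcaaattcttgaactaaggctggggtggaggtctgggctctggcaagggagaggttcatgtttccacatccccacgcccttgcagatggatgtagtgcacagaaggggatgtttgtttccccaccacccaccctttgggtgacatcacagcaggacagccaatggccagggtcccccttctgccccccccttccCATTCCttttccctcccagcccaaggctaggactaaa
Ncmap (chr4:135398228-135398477, - strand): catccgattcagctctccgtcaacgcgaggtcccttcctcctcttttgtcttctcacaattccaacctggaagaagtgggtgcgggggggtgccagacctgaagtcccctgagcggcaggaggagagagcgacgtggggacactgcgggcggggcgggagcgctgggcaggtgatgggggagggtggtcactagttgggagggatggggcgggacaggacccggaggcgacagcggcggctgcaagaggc
Cadm4 (chr7:24481773-24482022, + strand): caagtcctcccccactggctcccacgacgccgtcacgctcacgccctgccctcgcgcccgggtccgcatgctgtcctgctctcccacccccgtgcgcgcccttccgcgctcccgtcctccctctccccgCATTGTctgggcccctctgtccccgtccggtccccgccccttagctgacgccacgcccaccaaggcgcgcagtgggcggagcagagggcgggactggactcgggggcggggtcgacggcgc

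RefSeq listed 17 starts for 9 of the 10 genes. Both strands of these stretches were searched for 3 kinds of motif, with letters that do not overlap between kinds. The SOX letters were ACAAAG or ACAATG, as bound by SOX10, the factor that defines the SC lineage. They were present before a start of 3 genes, Cadm4 (121 bases upstream), Mag and Gjb1, and in 25.2% of the 32851 stretches of all genes. The TEAD letters were GGAATG, found before Prx (37 bases upstream), Mag and Gjb1, and in 12.6% of all stretches. The EGR letters were GCGTGGGCG or GCGGGGGCG, as bound by the myelination factor EGR2, and were found before none of the 9 genes and in 3.06% of all stretches. The Ncmap stretch held none of these letters. Matches were thus found before genes of both directions. They are counted per gene over all its starts, while the shares of all genes are per stretch. Genes with several starts had more chances of a match, so the counts and shares cannot be compared directly. GC content was 56.4% before Prx, 66.0% before Ncmap and 75.2% before Cadm4.

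Between the classes, 9 of the 10 genes had a higher level in mSC-like cells of both plates and Cadm4 had a higher level in nm(R)SC-like cells of both plates. Over the 13270 genes tested below, 45.5% had a fitted level higher in mSC-like cells. The share with that direction in both plates was not counted. The summed level of the 10 genes was 12071 and 12927 CPM in mSC-like cells against 837 and 720 CPM in the nm(R)SC-like class of plates 1 and 2. In edgeR's quasi-likelihood test with plate as a block, 6 genes (Prx, Cldn19, Gjb1, Pllp, Ncmap and Nfasc) passed an adjusted p of 0.05, all higher in mSC-like cells. Of all 13270 genes tested, 1.13% were called in this direction. All 10 genes passed the filter on low counts. With only 2 plates, the 4 genes that missed the limit are not shown to be equal between classes. Log2 ratios below are mSC-like over nm(R)SC-like with their standard error (SE), and adjusted p-values are from this edgeR test.

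**Figure D1:**
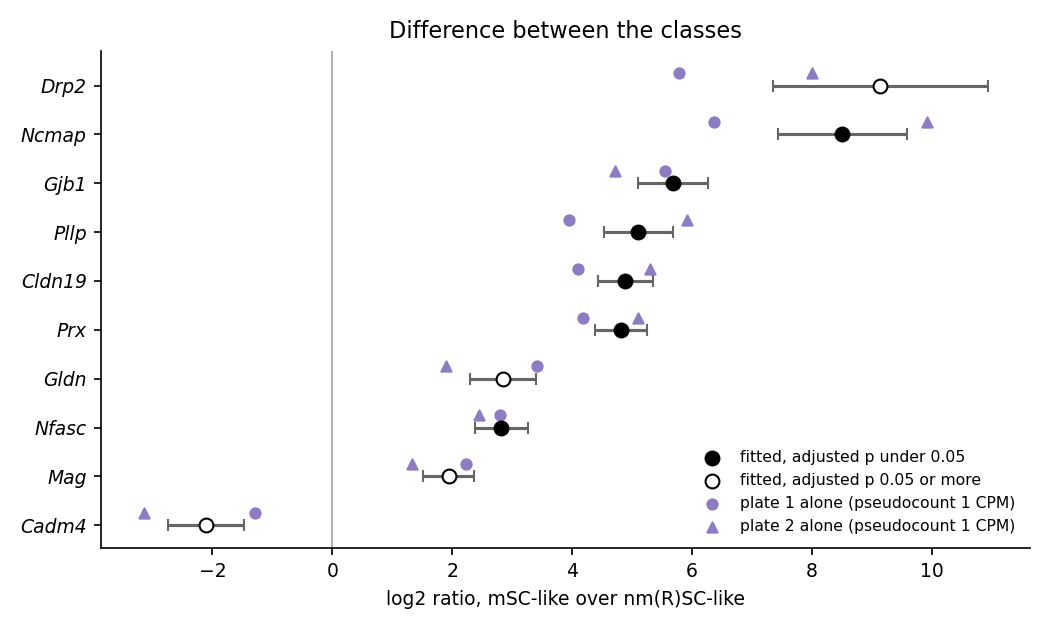
Log2 ratio of the level in mSC-like cells over that in nm(R)SC-like cells (x axis) for each of the 10 genes (y axis), with the edgeR estimate as a large point, its SE as a bar, and the value in each plate alone as a small symbol. The values for Cadm4 lie below 0 in both plates and those of the other 9 genes above 0, with the largest gaps between plates for Ncmap (6.37 and 9.91) and Drp2 (5.78 and 8.0).

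The periaxin-dystroglycan complex links the outer SC membrane to the basal lamina and divides the outer cytoplasm into appositions and channels. Prx (chromosome 7, 27499324 to 27520214, GRCm38) encodes its scaffold periaxin. Its level was 1912 and 1858 CPM in mSC-like cells of plates 1 and 2, against 105 and 53.4 CPM in the nm(R)SC-like class. Both mSC-like sums lay above both nm(R)SC-like sums, while single cells of the classes overlapped. The 2 mSC-like sums lay close together. The log2 ratio was 4.81 ± 0.431 (SE, n = 2 plates, adjusted p = 0.00836 in edgeR). Drp2 (chromosome X, 134404551 to 134456573) encodes the dystrophin-related protein that periaxin binds. It was read at 519.9 and 262 CPM in mSC-like cells and at 8.47 and 0.0260 CPM in the nm(R)SC-like class. In plate 2 only 4 Drp2 reads fell in the 248 nm(R)SC-like cells, and in plate 1 a single cell held 53.9% of the 330 reads of that class. The log2 ratio of 9.14 ± 1.79 was the largest of the 10 and missed the limit (adjusted p = 0.0531 in edgeR). The value was 5.78 within plate 1 and 8.0 within plate 2 with a pseudocount of 1 CPM.

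Connexin 32, encoded by Gjb1 (chromosome X, 101376378 to 101385629), forms gap junctions between layers of the same sheath at paranodes and incisures. Gjb1 was read at 216 and 92.5 CPM in mSC-like cells and at 3.65 and 2.55 CPM in the nm(R)SC-like class, which is 1.69% and 2.76% of the mSC-like level. A single cell held 54.2% of the Gjb1 reads of the nm(R)SC-like class in plate 1, and a single cell held 60.8% in plate 2. The log2 ratio was 5.69 ± 0.583 (adjusted p = 0.00836 in edgeR). Claudin 19, encoded by Cldn19 (chromosome 4, 119255414 to 119262438), seals tight junctions within the SC. Cldn19 was read at 1900 and 1383 CPM in mSC-like cells and at 109.5 and 34.0 CPM in the nm(R)SC-like class, with a log2 ratio of 4.89 ± 0.460 (adjusted p = 0.00836 in edgeR). A single cell held 49.8% of the Cldn19 reads of the nm(R)SC-like class in plate 2. For both Gjb1 and Cldn19, both mSC-like sums lay above both nm(R)SC-like sums, while single cells of the classes overlapped.

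Ncmap and Pllp encode small membrane proteins of myelin, and Pllp (plasmolipin) belongs to the MARVEL family. Ncmap (chromosome 4, 135369576 to 135398227) was read at 3272 and 4036 CPM in mSC-like cells and at 38.5 and 3.19 CPM in the nm(R)SC-like class. Its log2 ratio was 8.51 ± 1.07 (adjusted p = 0.0137 in edgeR). Pllp (chromosome 8, 94674894 to 94696278) was read at 2944 and 4077 CPM in mSC-like cells and at 191 and 66.6 CPM in the nm(R)SC-like class. The log2 ratio of Pllp was 5.10 ± 0.575 (adjusted p = 0.00966 in edgeR). For both genes the mSC-like level was higher in plate 2 than in plate 1 and the nm(R)SC-like level lower, so the gap between classes was wider in plate 2.

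The remaining genes encode molecules that face the axon. Nfasc (chromosome 1, 132564690 to 132741797) encodes neurofascin, whose glial form holds the paranodal loops to the axon. It was read at 228 and 131 CPM in mSC-like cells and at 31.9 and 23.2 CPM in the nm(R)SC-like class, with a log2 ratio of 2.82 ± 0.446 (adjusted p = 0.0290 in edgeR). The call was lost without TMM normalisation (adjusted p = 0.0502), without integration of the plates (0.0717) and without the plate block (0.0511). Gliomedin, encoded by Gldn (chromosome 9, 54286486 to 54341786), is deposited at the node and gathers sodium channels there. Gldn was read at 325 and 113 CPM in mSC-like cells and at 29.7 and 29.8 CPM in the nm(R)SC-like class. The summed mSC-like levels differed more between plates than the summed nm(R)SC-like levels, which rested on unlike numbers of cells. In the nm(R)SC-like class, 79 of 180 cells of plate 1 and 14 of 248 cells of plate 2 had a Gldn read. As a mean over cells, the level of that class was 44.8 and 11.5 CPM. The log2 ratio of 2.85 ± 0.555 missed the limit (adjusted p = 0.0521 in edgeR).

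Mag and Cadm4 encode adhesion molecules of the periaxonal membrane, and they were the members with the highest share of their mSC-like level in nm(R)SC-like cells. Mag (chromosome 7, 30899176 to 30914873), the myelin-associated glycoprotein, was read at 682 and 961 CPM in mSC-like cells and at 144 and 384 CPM in the nm(R)SC-like class. That is 21.1% and 39.9% of the mSC-like level. In the nm(R)SC-like class, 1 cell held 26.9% of the Mag reads of plate 1, and 1 cell held 8.04% of those of plate 2. The log2 ratio of 1.94 ± 0.425 missed the limit (adjusted p = 0.0753 in edgeR). Cadm4 (chromosome 7, 24482023 to 24504539), also called nectin-like 4, binds axonal nectin-like proteins along the internode. It was read at 71.4 and 13.1 CPM in mSC-like cells and at 176 and 124 CPM in the nm(R)SC-like class, so that the latter was 2.46 and 9.47 times the former. The log2 ratio of Cadm4 was -2.11 ± 0.636 (adjusted p = 0.196 in edgeR), and it passed the limit with DESeq2 (adjusted p = 0.00834) and with cells thinned to equal depth (adjusted p = 0.00798 in edgeR). The nm(R)SC-like class held 3 clusters that differed in both genes. Mag was read at 40.1 and 58.1 CPM in the cluster led by Ednrb and ribosomal genes, against 139.8 and 446 CPM in the cluster led by Apoe and Scn7a and 309 and 471 CPM in that led by Apoe and Aldh1a1. Cadm4 was read at 67.7 and 41.6 CPM, 288 and 185 CPM, and 199 and 88.7 CPM in the same clusters, so that in plate 1 the first of them was not above the mSC-like level. These clusters were built without the 10 genes, and their differences were not tested. In which cluster the cell with 26.9% of the Mag reads of plate 1 lay was not determined.

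Levels were compared between genes only per length, as reads per kb of exon on the CPM scale (RPKM). In mSC-like cells the order was Pllp (1685 ± 385 RPKM, SD, n = 2 plates), Ncmap (1641 ± 243), Cldn19 (385 ± 85.8), Prx (338 ± 6.79), Mag (202 ± 48.4), Gjb1 (90.4 ± 51.2), Gldn (47.1 ± 32.2), Drp2 (45.7 ± 21.4), Cadm4 (19.5 ± 19.1) and Nfasc (12.7 ± 4.84). The ranges of the 2 plates did not overlap between Ncmap and Cldn19, between Prx and Mag or between Mag and Gjb1. All other neighbours in this order overlapped, among them Pllp with Ncmap and each pair from Gjb1 to Nfasc. In nm(R)SC-like cells the order began with Cadm4 (69.2 ± 17.1 RPKM), Mag (64.8 ± 41.6) and Pllp (61.7 ± 42.1), whose ranges overlapped. It ended with Nfasc (1.95 ± 0.437 RPKM), Gjb1 (1.82 ± 0.452) and Drp2 (0.497 ± 0.698). These orders are of the mean of 2 plates. In the nm(R)SC-like class, Pllp was first in plate 1 and Mag in plate 2.

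**Figure D2:**
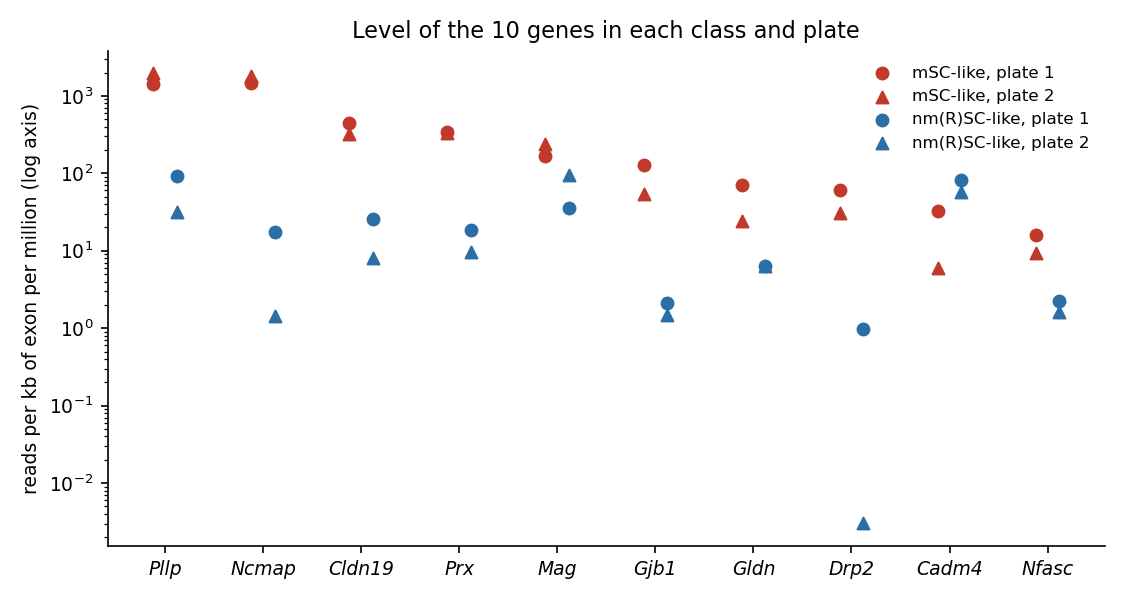
Level of the 10 genes as RPKM on a log axis (y), ordered by their mean in mSC-like cells (x), with red for mSC-like and blue for nm(R)SC-like cells, circles for plate 1 and triangles for plate 2. Pllp and Ncmap lie highest in mSC-like cells, between 1413 and 1957, Cadm4 has its blue symbols above its red ones, and Drp2 falls to 0.00304 in the nm(R)SC-like class of plate 2.

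The share of cells with a gene was compared at equal depth, in cells with 100000 reads or more thinned to 100000. This left 97 and 72 mSC-like cells and 114 and 240 nm(R)SC-like cells in plates 1 and 2. A cell was counted with 5 reads or more, and intervals are exact binomial 95% intervals, which cover counting error only. Prx, Ncmap, Cldn19 and Pllp were each present in 97.9% of the mSC-like cells of plate 1 and in 93.1%, 91.7%, 88.9% and 100% of those of plate 2. These 4 genes were thus read in nearly every mSC-like cell. Gjb1 was present in 53.6% (43.2% to 63.8%) of mSC-like cells in plate 1 and in 23.6% (14.4% to 35.1%) in plate 2. Drp2 was present in 69.1% and 50%, Nfasc in 70.1% and 30.6%, and Gldn in 69.1% and 25%. For these weaker genes the shares were lower in plate 2 than in plate 1, as was the number of detected genes per cell, and whether the plates differ in capture or in the cells was not tested.

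In nm(R)SC-like cells the genes fell into different ranges. Gjb1 was present in 0.877% and 0.833% of cells, and Drp2 in 1.75% of the cells of plate 1 and in 0 of 240 cells of plate 2, which allows a share of up to 1.25% by a limit of 3 cells and of up to 1.53% by the exact interval. These low shares rest on the limit of 5 reads in plate 1. With 1 read or more, the nm(R)SC-like shares of plates 1 and 2 were 8.77% and 1.25% for Gjb1, 25.4% and 0.833% for Drp2, and 73.7% and 18.3% for Ncmap, which with 5 reads had 13.2% and 1.25%. Mag was present with 5 reads in 33.3% (24.8% to 42.8%) and 35.0% (29.0% to 41.4%), close to each other in the 2 plates. With 1 read or more its shares were further apart, at 55.3% and 41.25%. Pllp, Prx and Cldn19 were present in 50%, 37.7% and 32.5% of the cells of plate 1 and in 7.5%, 11.7% and 2.5% of those of plate 2. Cadm4 was present in 70.2% and 37.5% of nm(R)SC-like cells against 43.3% and 6.94% of mSC-like cells. The intervals of the classes lay apart in both plates for all 10 genes. The mSC-like share was higher for 9 of them and the nm(R)SC-like share for Cadm4. The share of all genes with intervals apart was not computed, so this count says nothing particular about the 10 genes.

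**Figure D3:**
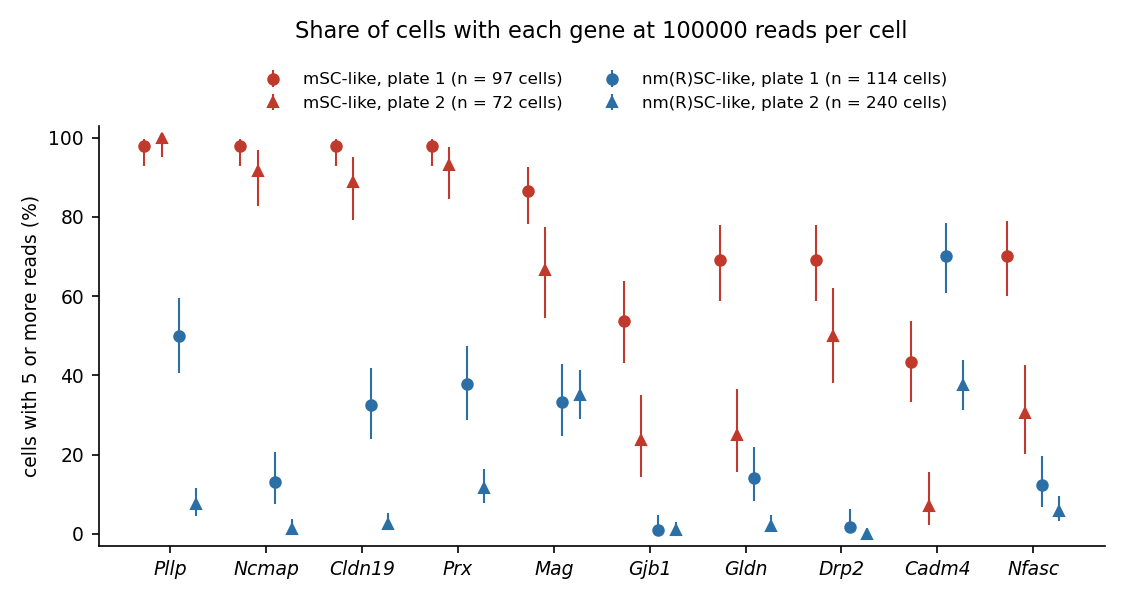
Share of cells with 5 reads or more of each gene (y, percent) at 100000 reads per cell, with exact 95% binomial intervals as bars, red for mSC-like and blue for nm(R)SC-like cells, circles for plate 1 and triangles for plate 2. Prx, Ncmap, Cldn19 and Pllp lie at 88.9% or more in mSC-like cells, Mag keeps about the same share of nm(R)SC-like cells in both plates, and Cadm4 is the gene with blue above red.

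Reads of myelin genes in nm(R)SC-like cells were not limited to the 10 genes. Of genes that named the classes, Pmp22, which encodes a protein of compact myelin, had 7.87% and 8.28% of its mSC-like level in the nm(R)SC-like class of plates 1 and 2. Fa2h, an enzyme of myelin lipid synthesis, had 1.95% and 0.914%, and Mal, a MARVEL protein of myelin, had 36.1% and 47.8%. The corresponding values were 5.48% and 2.87% for Prx, 5.76% and 2.46% for Cldn19, 6.47% and 1.63% for Pllp, and 1.18% and 0.0789% for Ncmap. Within a plate these percentages therefore covered a wide range. Drp2 and Ncmap lay below all the mSC-like naming genes in both plates, and Gjb1 did so in plate 1 only. The part of RNA from other wells or of misplaced cells in these reads was not tested.

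A typical mSC-like cell held most of the 10 genes. At 100000 reads, the median mSC-like cell had 8 of them with 5 reads or more in plate 1 and 6 in plate 2, and the median nm(R)SC-like cell had 3 and 1. At least 5 genes were present in 96.9% and 79.2% of mSC-like cells and in 7.02% and 0 of the nm(R)SC-like cells. The 10 genes took a median of 1.10% and 1.323% of the reads of an mSC-like cell, against 0.0700% and 0.0260% in an nm(R)SC-like cell. Among mSC-like cells, Pllp, Ncmap, Prx and Cldn19 varied least, with coefficients of variation between 0.559 and 0.720 over both plates. Gjb1 varied from 0 to 102 reads per 100000 in plate 1 and from 0 to 70 in plate 2, with medians of 10 and 0 reads.

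Across mSC-like cells at equal depth, the 45 pairs among the 10 genes had a median Pearson r of 0.127 in 97 cells of plate 1 and of 0.149 in 72 cells of plate 2, beside 0.047 and 0.024 over all pairs of 2298 genes. These are descriptions over cells that share a library depth and a plate, and most are weak. Ncmap and Pllp formed the pair with the highest r in plate 1 (0.512, and 0.310 in plate 2), and Prx had the highest r in plate 2, at 0.328 with both Mag and Ncmap (0.334 and 0.418 in plate 1). Cadm4 and Pllp had the lowest r in both plates (-0.206 and -0.381). The mean standardised level of the 10 genes also correlated with the number of detected genes (r = 0.451 and 0.324) and less with the reads before thinning (0.145 and 0.094). Outside all lists, the 5 of 2253 genes whose level was most like this mean, by the lower r of the 2 plates, were Cd9 (r = 0.654 and 0.553), a tetraspanin, Slc36a2 (0.449 and 0.590), an amino acid transporter, Atp1b3 (0.448 and 0.522), a subunit of the sodium pump, Cd81 (0.398 and 0.395), another tetraspanin, and Tmbim6 (0.414 and 0.384).

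Myelinating SCs at P60 contain cells with and without Mfap5, which encodes a microfibril-associated protein, and the 10 genes were compared between them. With 5 Mfap5 reads or more at 50000 reads per cell, 72 mSC-like cells of plate 1 and 19 of plate 2 were Mfap5-positive, and 50 and 53 were Mfap5-negative. None of the 10 genes passed an adjusted p of 0.05 in edgeR, where 0.516% of 11240 genes did. At an unadjusted p of 0.05, 3 of the 10 (Drp2, Nfasc and Gjb1) and 6.98% of all genes passed. Drp2 was read at 775 and 445 CPM in Mfap5-positive cells of plates 1 and 2 and at 132 and 197 CPM in Mfap5-negative cells, a log2 ratio of 2.02 ± 0.455 (adjusted p = 0.102 in edgeR). It passed the limit with DESeq2 (adjusted p = 0.00234), without TMM (0.00417) and without the filter on low counts (0.0410), and these settings called no other of the 10 genes.

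Nfasc was read at 279 and 275 CPM in Mfap5-positive cells and at 138 and 80.6 CPM in Mfap5-negative cells (log2 ratio 1.55 ± 0.540, adjusted p = 0.446 in edgeR). Gjb1 was read at 273 and 181 CPM against 134 and 61.3 CPM (log2 ratio 1.45 ± 0.560, adjusted p = 0.544 in edgeR). For these 3 genes and for Cadm4 (log2 ratio 1.56 ± 1.35) the Mfap5-positive level was higher in both plates. Among all mSC-like cells of plate 2, single cells held 26.6% of the Nfasc, 22.9% of the Gjb1, 24.1% of the Cadm4 and 15.7% of the Drp2 reads. Whether these cells were among the 19 Mfap5-positive cells of that plate was not determined. Prx, Mag, Ncmap and Pllp had the lower level in Mfap5-positive cells of both plates, with log2 ratios between -0.52 and -0.18, and Cldn19 and Gldn had opposite signs in the 2 plates.

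**Figure D4:**
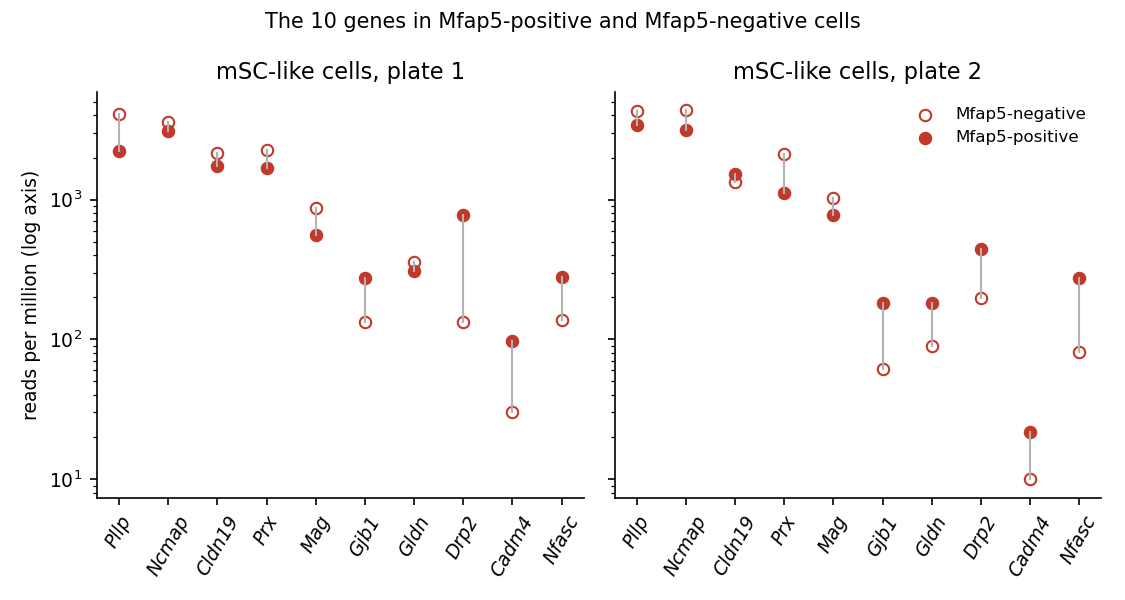
Level of the 10 genes in CPM on a log axis (y) in Mfap5-positive (filled) and Mfap5-negative (open) mSC-like cells of plate 1 (left) and plate 2 (right). Drp2, Gjb1, Nfasc and Cadm4 have the filled point above the open one in both plates, and none of the 10 genes passed the test.

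The partners of these proteins had log2 ratios of both signs, from -7.07 to 6.93, and 18 were called with DESeq2 where edgeR called 2. The 7 lists with 69 genes covered the periaxin-dystroglycan complex, nodal microvilli, the paranodal junction, internodal adhesion, autotypic junctions, connexins and other MARVEL proteins, and 61 genes passed the filter on low counts. Of these, 2 were called higher in mSC-like cells and 0 lower in edgeR, beside 1.13% and 1.02% of all genes (2.15% in either direction). The median log2 ratio was 0.24 over the lists, 4.85 over the 10 genes and -0.12 over all genes tested. The 2 called genes were Mpp6 and Epb41l2. Mpp6, a scaffold of the internodal membrane that binds Cadm proteins, was read at 62.3 and 69.7 CPM in mSC-like cells and at 1.90 and 2.02 CPM in the nm(R)SC-like class (log2 ratio 5.23 ± 0.824, adjusted p = 0.0290 in edgeR). Epb41l2, from the list of the paranodal junction, encodes the scaffold 4.1G. It was read at 342 and 193 CPM against 111 and 43.7 CPM (log2 ratio 2.04 ± 0.384, adjusted p = 0.0466 in edgeR). The call of Epb41l2 was lost in 6 of 10 alternatives, with adjusted p-values from 0.0692 to 0.251 in edgeR, and that of Mpp6 in 3, with values of up to 0.0957.

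None of the 12 partners in the periaxin-dystroglycan complex was called, with a median log2 ratio of 0.02. Dag1, which encodes dystroglycan, was read at 701.8 and 262 CPM in mSC-like cells and at 430 and 258 CPM in the nm(R)SC-like class (log2 ratio 0.52 ± 0.390, adjusted p = 0.718 in edgeR). Utrn, which encodes utrophin, was read at 589.9 and 1060 CPM against 259.7 and 267 CPM (log2 ratio 1.74 ± 0.369, adjusted p = 0.0703 in edgeR). The lists of nodal microvilli (8 genes, median -0.06), autotypic junctions (13 of 14 genes tested, median 0.50) and MARVEL proteins (7 of 9 tested, median -0.65) had no called gene. Of the 6 other connexins, only Gjc1 and Gjc3 passed the filter. Gjc3, which encodes connexin 29, was read at 938 and 1194 CPM in mSC-like cells and at 785 and 651 CPM in the nm(R)SC-like class (log2 ratio 0.72 ± 0.352, adjusted p = 0.490 in edgeR). Gjb6 was at 0 reads in all 4 sums, and Gjb2 had 1 read. Cntn2 was at 0 reads in all 4 sums as well.

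**Figure D5:**
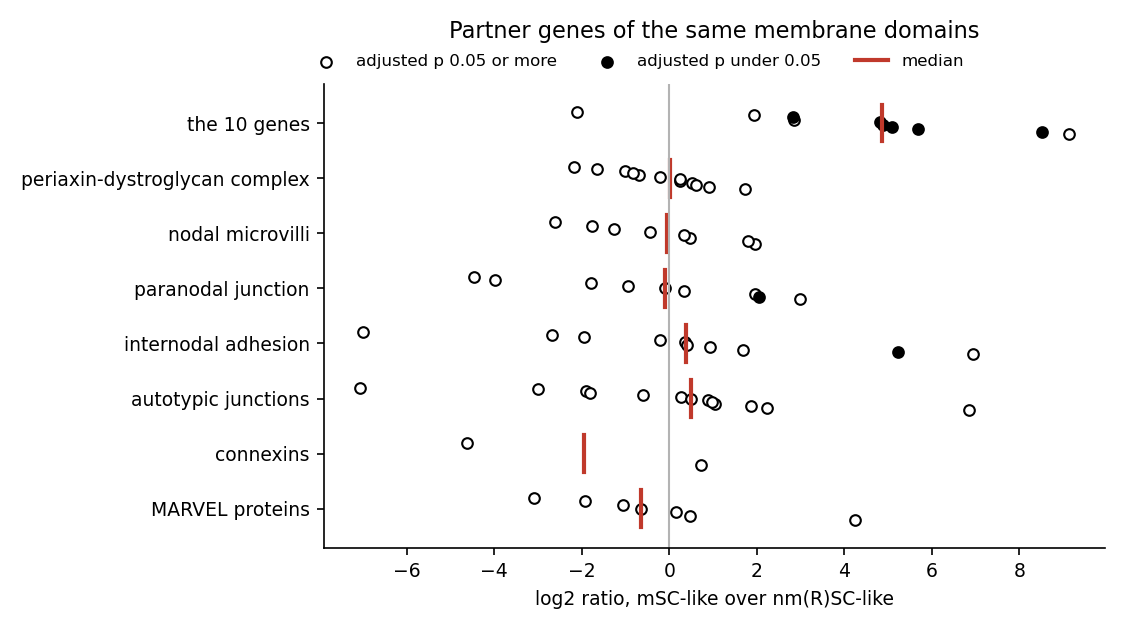
Log2 ratio of mSC-like over nm(R)SC-like cells (x) for the 10 genes and for the tested genes of 7 partner lists (y), with filled points for genes with an adjusted p under 0.05 in edgeR, open points for the others and a red line at the median. The median is 4.85 for the 10 genes and lies between -1.94 and 0.50 for the lists, where Mpp6 and Epb41l2 are the filled points.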

How the data were processed

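The authors deposited raw counts of reads for each gene in each cell, made per the labels with STAR 2.6.1c and featureCounts on GRCm38.p5. The study's methods give another STAR version and a human build, and strand and multimapping settings were not stated. Of 25700 identifiers, 25664 were found in GENCODE M21 (GRCm38), and no exon of the 10 genes overlapped another gene of the table. Intervals cover counting error only, since reads are not molecules. The genes, lists and tests were chosen with earlier results of these data known.

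Cells with 1500 or more detected genes were scaled to 100000 reads, log transformed, integrated (CCA, 12 dimensions) and clustered at a resolution of 0.5 in Seurat 5.3.0 under R 4.3.3. The 10 genes and their lists took no part. Clusters were named from 7 mSC-like and 12 nm(R)SC-like markers, which were not tested. All other genes were split at random in 2 parts, each tested in classes built from the other. A cell-cycle cluster that stayed unnamed in the full build was named nm(R)SC-like in the builds from the parts. Cells were sorted singly, and no doublet caller was run.

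Counts summed per plate and class (4 sums) were compared in edgeR 4.0.16 by its quasi-likelihood test (plate as a block, TMM factors, filterByExpr at a minimum of 10 counts, Benjamini-Hochberg adjustment over all genes, limit 0.05). The plate pairs the classes because both came from the same mice. DESeq2 1.42.0 was an alternative. Ratios within a plate used a pseudocount of 1 CPM. Named genes were the 10 genes, up to 3 called genes per list and direction, list genes at about 0 reads, and the 5 genes most like the mean of the 10 in mSC-like cells. Dag1, Utrn, Gjc3 and the naming markers with values were named after their values were seen. Some genes of the lists are not reported here.

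The steps were tested on simulated data. In a first simulation, which gave all genes a common dispersion, edgeR called none of the changed genes in either comparison, while DESeq2 called part of them. The simulation, not the test, was then changed to dispersions that follow the trend in the data, and edgeR recovered part of the changes. Recovery by edgeR thus depended on the dispersions simulated, its power with 2 plates is low, and DESeq2 called more unchanged genes than edgeR in both simulations.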

Additional observations from a re-analysis of the deposited data

Results flagged for a closer look

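Cells outside the comparisons also held reads of the 10 genes, above the limit that a count of 0 allows. Cells with fewer than 1500 detected genes, which were left out, had a summed level of 5840 CPM in the 44 cells of plate 1 and of 4620 CPM in the 50 cells of plate 2, between the levels of the nm(R)SC-like and mSC-like classes. In plate 1 all 10 genes had more than 3 reads in these cells, Prx at 1624 CPM and Cldn19 at 1301 CPM. In plate 2, 8 genes did, and the 403 reads of Drp2 came from 1 cell. The unnamed cell-cycle cluster had a summed level of 307 CPM in 16 cells of plate 1, below both classes. In plate 2 the sum was 374 CPM in 13 cells, also below both, but rested on 70 reads. A single cell held 114250 of the 186928 reads of these 13 cells, whose median was 4081. As a mean over cells of plate 2, Prx, Cldn19, Gjb1, Ncmap and Pllp were higher in this cluster than in the nm(R)SC-like class. Drp2, Mag, Cadm4, Nfasc and Gldn were lower. In the cluster these means rested on 23 reads of Prx, 8 of Cldn19, 1 of Gjb1, 11 of Ncmap and 8 of Pllp. Cadm4 had 18 reads there, Mag had 1, and Drp2, Nfasc and Gldn had 0. The order in plate 2 thus depends on how the cells are weighted.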

How the results depend on the processing

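The number of the 10 genes called higher in mSC-like cells was 6 as reported and between 5 and 9 over 10 alternatives. It was 9 with DESeq2, without the filter on low counts and with cells thinned to 50000 reads, 8 with a minimum of 1000 detected genes, 7 with 2500 and without the gene split, 6 with values under 5 reads set to 0, and 5 without TMM, without integration and without the plate (replicate) block. Over all genes tested, the number called higher was 150 of 13270 as reported and 725 of 13270 with DESeq2. It was 224 of 16847 without the filter, 397 of 12113 with thinned cells and 213 of 13323 with 1000 detected genes. It was 95 of 12832 with 2500, 177 of 13163 without the gene split and 89 of 13114 with low values set to 0. Without TMM it was 62 of 13270, without integration 152 of 13262 and without the replicate block 64 of 13270. Cadm4 was called lower with DESeq2 and with thinned cells, and no member changed its sign between the classes. With a minimum of 1000 detected genes, the log2 ratio was smaller than reported for every gene that was higher in mSC-like cells. Drp2 fell from 9.14 to 4.99, where it was called (adjusted p = 0.00539 in edgeR), and Ncmap from 8.51 to 4.37. Cldn19 fell to 3.81, Pllp to 3.69, Gjb1 to 3.67 and Prx to 3.51. The cause was not tested.

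Partner genes called in either direction numbered 2 as reported, 18 with DESeq2, 13 with thinned cells, 6 with 1000 detected genes, 5 without the filter, 1 with values under 5 reads set to 0, 1 without the replicate block, and 0 without TMM and with 2500 detected genes. Over all genes, edgeR called 150 higher and 135 lower in mSC-like cells, DESeq2 725 and 952, edgeR on thinned cells 397 and 434, and edgeR without the replicate block 64 and 76. Epb41l2 lost its call in 6 of the alternatives and Mpp6 in 3.

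Between Mfap5-positive and Mfap5-negative cells, 0 of the 10 genes were called as reported, with 1 read of Mfap5 as the limit and without the replicate block. With DESeq2, without TMM and without the filter, 1 was called, Drp2. Over all genes, 44 were higher and 14 lower, 483 and 301 with DESeq2, 155 and 135 without TMM, 100 and 53 without the filter, and 0 and 0 without the replicate block (750 at an unadjusted p of 0.05 in edgeR). The log2 ratio of Cldn19 (0.10) changed its sign to -0.05 without TMM and to -0.07 with 1 read of Mfap5. Leaving out a plate left no residual degree of freedom, so these alternatives gave ratios within the other plate and no counts. The intervals of the classes lay apart, with mSC-like cells higher, for 9 genes with 5 reads, with 1 read and at 50000 reads per cell. The matching share of all genes was not computed. With 2 plates, a gene that missed the limit is not shown to be equal between classes.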
